A study of Mus musculus with 6 samples.

Results

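The genes described here are 10 genes of cardiac resident macrophages and of the uptake of dying cells, Lyve1, Timd4, Folr2, Cbr2, F13a1, Gas6, Mertk, Axl, Csf1r and Trem2. They were chosen by name, and all 10 are among the 26012 genes of the deposited table. Their transcripts were measured by RNA-seq in the ventricles of 6 male C57BL/6 mice, 8 weeks old at surgery, in which a myocardial infarction (MI) was set by tying off the left anterior descending artery (LAD). At the operation 3 hearts received an intra-cardiac injection of control mimic and 3 received miR-19a and miR-19b mimics together, at 10 µg of mimic per heart, and all were collected on day 4. A mimic is a synthetic double-stranded RNA that supplies the mature miRNA. Both groups are therefore infarcted and injected, and the labels name ventricular tissue without saying how much of it was infarct, border or remote muscle. The comparison asks how the injected miRNA changes transcript levels early after MI.

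The adult heart holds long-lived macrophages that are seeded before birth and renew locally, and after MI they are joined by macrophages that derive from blood monocytes. LYVE1, TIMD4 and FOLR2 on the surface and the enzymes CBR2 and coagulation factor XIII A are used to recognize the resident population. Macrophages clear dead cardiomyocytes and neutrophils by efferocytosis, in which the bridging protein GAS6 links phosphatidylserine on a dying cell to the receptor tyrosine kinases MERTK and AXL. TIMD4 binds phosphatidylserine directly, CSF1R is the growth factor receptor on which macrophages depend, and TREM2 is a receptor for lipids and lipoproteins that signals through the adaptor TYROBP.

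The mature miRNAs are shown because the injected mimics carry them. RefSeq (GRCm38.p6) places miR-19a-3p at chr14:115044048-115044070 and miR-19b-3p at chr14:115044358-115044380, both on the plus strand, with a second copy of miR-19b on chromosome X. The seed, bases 2 to 8, is in capitals and is shared, and the only difference from miR-19a to miR-19b is U11C, counted from the 5′ end.

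miR-19a-3p: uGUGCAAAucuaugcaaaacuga

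miR-19b-3p: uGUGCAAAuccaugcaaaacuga

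The longest annotated 3′ UTR of each gene (GENCODE M21, GRCm38) was searched on the transcript strand for the 8-base match TTTGCACA and for the 7-base matches TTTGCAC and TTGCACA, which overlap within it. Of 15810 tested genes with a 3′ UTR, 18.4% held at least 1 match and 5.6% held the 8-base match. None of the 10 genes held any of the 3 matches in these windows, which ranged from 187 bases for Folr2 to 1669 bases for Csf1r. Of 89 related genes of these pathways with a 3′ UTR, 15 held a match. Their log2 fold changes, miR-19a/19b mimic over control mimic, were below 0 for 11 and above 0 for 4, against 39 and 35 of the 74 without a match, counts that were not tested. When the 7-base matches were counted separately, so that an 8-base match counted more than once, Maf held the most, 7. Its log2 fold change was 0.04, and Tub held 5, with 0.32. Both held the 8-base match, so their separate sites were fewer than these counts. Thbs1, Megf10 and Ms4a7, described at the end, each held a single 7-base match and had log2 fold changes below 0. Csf1, Treml2 and Siglec1, also described there with log2 fold changes below 0, held no match. Stretches of 30 bases that hold the matches in Thbs1 and Ms4a7 are printed as examples, with the matched bases in capitals. That of Thbs1 spans chr2:118126871-118126900 on the plus strand, and that of Ms4a7 spans chr19:11321147-11321176 on the minus strand. The match in Megf10 is not shown. A match is a stretch of letters and not a shown site of binding.

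Thbs1: gtttttatatgTTGCACActgaattgaaga

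Ms4a7: ctctgcattgcTTGCACAatcctttgctta

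The libraries held 19398196 to 23645308 reads assigned to genes, and the deposited values are counts divided by a size factor of each library, called normalized counts below. miR-19a/19b mimic replicate 3 stood apart from the other libraries. The normalized counts of 10 cardiomyocyte genes summed to 352267 in it, against 577242 to 749997 in the control mimic hearts and up to 1034734 in the other miR-19a/19b mimic hearts, and 0 of the 10 genes had an unadjusted p-value under 0.05. All 13 general macrophage genes on a list that was checked were detected in every heart. Their sums were 80501 to 92864 in control mimic hearts and 61468 to 99280 in miR-19a/19b mimic hearts, the highest in the same replicate 3, and 11 of the 13 log2 fold changes were below 0. Of the recruited monocyte genes 12 of 12 had log2 fold changes below 0, with a median of -0.44 and 5 genes at an unadjusted p-value under 0.05. Over the 21126 genes tested, 2.63% were lower at that threshold. The medians were -0.39 for 12 neutrophil genes, -0.52 for 10 T cell genes, -0.27 for 6 B cell genes, -0.44 for 8 dendritic cell genes, -0.19 for 8 platelet genes and -0.01 for 10 blood endothelial genes. The neutrophil sums overlapped, at 2253 to 3014 in control mimic hearts and 1239 to 4015 in miR-19a/19b mimic hearts, highest in replicate 3. Most of the T cell genes had few reads. Whether these shifts have a part in the values of the 10 genes was not tested. The p-values set a difference against the spread between these hearts, which the study calls biological replicates. In limma the variance of each gene is also drawn toward that of genes at a similar level. In bulk tissue, fewer cells of a type and less RNA per cell cannot be told apart.

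Divided by the gene length in the file, Gas6 was the most abundant of the 10 transcripts, with 2152 to 2503 normalized counts per kilobase over the 6 hearts. Axl followed at 1173 to 1547 and Csf1r at 972 to 1449 per kilobase, and the ranges of these receptors overlapped. F13a1 (748 to 993), Trem2 (607 to 973) and Folr2 (691 to 864 per kilobase) formed a group whose ranges also overlapped, and the range of F13a1 reached that of Csf1r. Cbr2 (376 to 591) overlapped with Mertk (267 to 401), and Mertk with Lyve1 (98.5 to 286 per kilobase). Timd4 was the lowest and did not overlap with Lyve1, at 2.69 to 8.07 per kilobase, above only 24.9% of the genes tested. The length the file gives for Trem2 is 4946 bases, while its longest coding transcript in GENCODE M21 has 1088, and with that length its mean would be 3511 per kilobase, above Gas6. For the other genes the lengths differed less, and the place of Trem2 in the order is therefore uncertain.

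**Figure D1:**
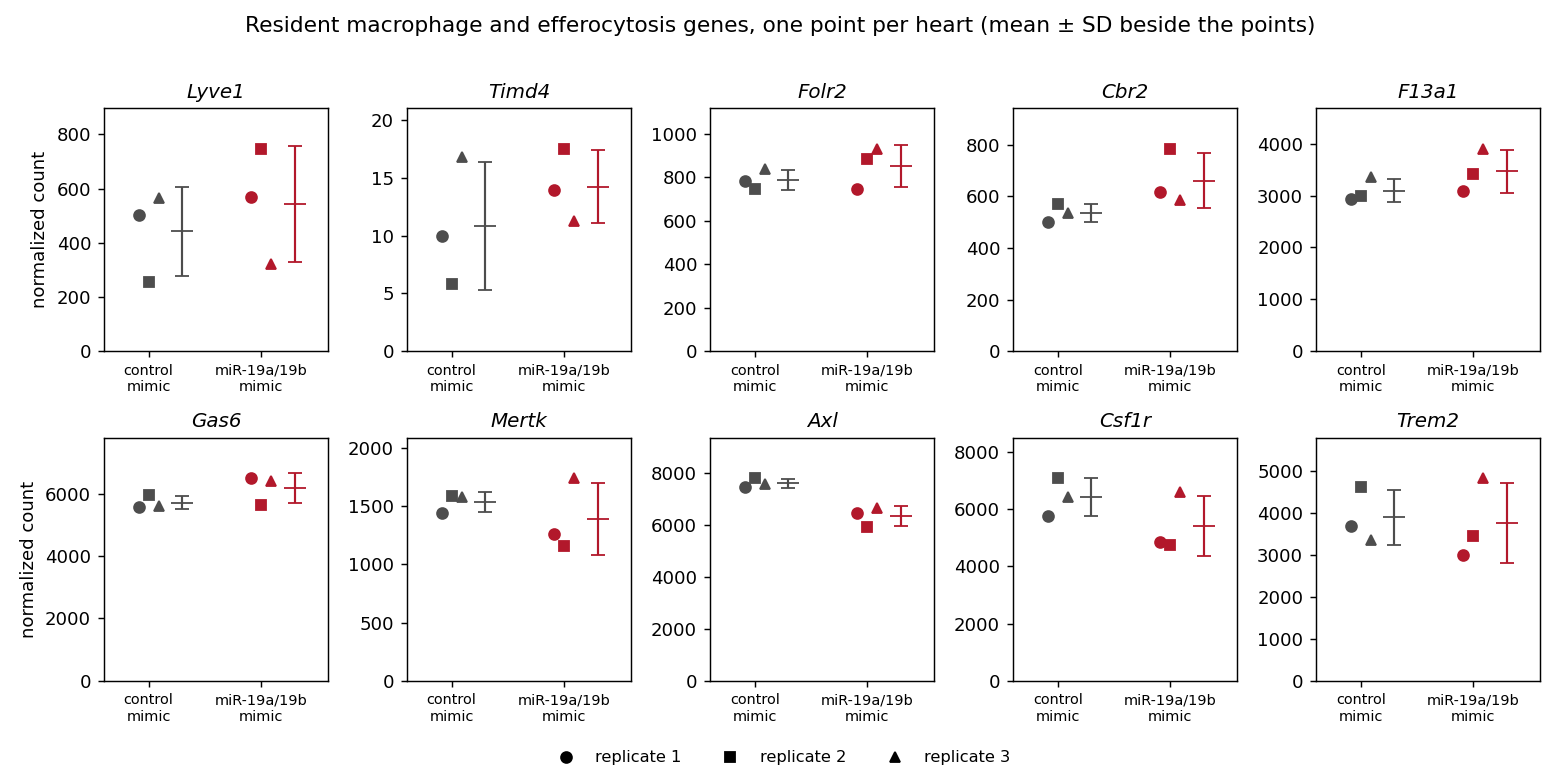
Normalized count of each gene (vertical axes, from 0) in 3 control mimic hearts (grey) and 3 miR-19a/19b mimic hearts (red), 1 point per heart with the replicate number as its shape, and the mean ± SD beside the points. The groups separate for Axl, lower with the mimics, and for Cbr2, higher with the mimics, and overlap for the other 8 genes.

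The resident macrophage markers had higher means in the miR-19a/19b mimic hearts for all 5 genes, with overlap between the groups for 4 of them. For each of the 10 genes the adjusted p was 0.9996 in limma. Cbr2 encodes carbonyl reductase 2, an NADPH-dependent enzyme. It lies on chromosome 11 from 120729489 to 120732114 (ENSMUSG00000025150, at the position the file lists, GRCm38). Its normalized counts were 499.6, 569.0 and 536.2 in control mimic replicates 1 to 3, and 615.4, 784.6 and 585.2 in miR-19a/19b mimic replicates 1 to 3. Every miR-19a/19b mimic heart was above every control mimic heart, and replicate 2 was the farthest above. The group means were 535 ± 34.7 and 662 ± 107 (SD, n = 3), and the log2 fold change was 0.30 (95% interval -0.0026 to 0.60). The unadjusted p-value of 0.0516 missed 0.05, and in the 9 fits to all hearts it ranged from 0.0451 to 0.0657. Without miR-19a/19b mimic replicate 2 the log2 fold change was 0.17.

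F13a1 encodes the A subunit of coagulation factor XIII, which cross-links fibrin and is made by macrophages and platelets. It is on chromosome 13 from 36867178 to 37050244. Its normalized counts were 2937, 2989 and 3349 in the control mimic hearts and 3086, 3408 and 3901 in the miR-19a/19b mimic hearts, so the groups overlapped. Its log2 fold change was 0.16 (95% interval -0.11 to 0.43), with 0.07 when miR-19a/19b mimic replicate 3 was left out and 0.24 when replicate 1 of that group was. The 8 platelet genes summed to 506 to 601 in control mimic hearts and to 493 to 953 in miR-19a/19b mimic hearts. Of these genes, 6 had log2 fold changes below 0. The sum was highest in miR-19a/19b mimic replicate 3, also the highest for F13a1, and 1 of the 8 genes alone had 581 there. Among the control mimic hearts, replicate 1 had the highest platelet sum and the lowest F13a1 count. The part of platelets in the F13a1 values was not tested.

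Folr2, the gene of folate receptor beta, lies on chromosome 7 from 101839990 to 101845331. It had 781.4, 748.5 and 839.9 normalized counts in the control mimic hearts and 745.6, 885.6 and 931.9 in the miR-19a/19b mimic hearts. The lowest and the highest value were both in the miR-19a/19b mimic group. A log2 fold change of 0.11 resulted (95% interval -0.15 to 0.37). It was 0.04 without miR-19a/19b mimic replicate 3 and 0.20 without replicate 1 of that group.

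Timd4, on chromosome 11 from 46810800 to 46844332, encodes a phosphatidylserine receptor that tethers dying cells. Only 6 to 18 reads per heart were counted on it. The normalized counts were 9.95, 5.86 and 16.8 in control mimic hearts and 13.99, 17.5 and 11.2 in miR-19a/19b mimic hearts. As for Lyve1, control mimic replicate 2 was the lowest and miR-19a/19b mimic replicate 2 the highest. The log2 fold change of 0.45 had a 95% interval from -0.49 to 1.39, and it went from 0.11 without control mimic replicate 2 to 0.80 without control mimic replicate 3.

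Lyve1 encodes a hyaluronan receptor of resident macrophages that lymphatic endothelial cells carry as well. It lies on chromosome 7 from 110850607 to 110862953. Its normalized counts were 502.9, 256.7 and 566.1 in the control mimic hearts and 567.0, 746.4 and 319.8 in the miR-19a/19b mimic hearts. Control mimic replicate 2 was the lowest, followed by miR-19a/19b mimic replicate 3, and the other 4 hearts lay between 502.9 and 746.4. The log2 fold change of 0.30 had a 95% interval from -0.50 to 1.09, and it ranged from -0.06 without control mimic replicate 2 to 0.64 without miR-19a/19b mimic replicate 3. The hearts that were lowest for Lyve1 were also those with the lowest sums of cardiomyocyte genes, 577242 and 352267. The lymphatic list of 7 genes was all detected. It had 5 genes with log2 fold changes below 0, and sums of 3105 to 4063 in control mimic hearts and 3197 to 3630 in miR-19a/19b mimic hearts. In it Prox1, the transcription factor that sets lymphatic identity and is also present in cardiomyocytes, had 355 normalized counts in control mimic replicate 2 and 275 in miR-19a/19b mimic replicate 3, its lowest values. The part of lymphatic vessels or of muscle content in the Lyve1 values was not tested.

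Among the genes of apoptotic cell recognition, the receptor Axl was lower in every heart that received the mimics, while its ligand Gas6 was not. Axl encodes a receptor tyrosine kinase that is induced by interferon and inflammatory signals and is also present in fibroblasts and vessels. It lies on chromosome 7 from 25757273 to 25788705 (ENSMUSG00000002602). The normalized counts were 7453, 7787 and 7551 in control mimic hearts and 6455, 5902 and 6635 in miR-19a/19b mimic hearts. The control mimic hearts lay close together, and the highest miR-19a/19b mimic heart was below the lowest of them. The means were 7597 ± 172 and 6331 ± 382 (SD, n = 3), so the miR-19a/19b mimic group was at 83.3% of the control mean, and the log2 fold change was -0.26 (95% interval -0.52 to -0.01). The unadjusted p-value was 0.0409 in limma, and it lay between 0.015 and 0.106 over all fits to the 6 hearts, under 0.05 in 6 of 9. Leaving out a heart kept the log2 fold change between -0.30 and -0.21, and the unadjusted p-value was under 0.05 in 1 of these 6 fits, the one without miR-19a/19b mimic replicate 3. The fibroblast list of 10 genes had 6 genes with log2 fold changes below 0, a median log2 fold change of -0.02 and sums of 658700 to 809254 in control mimic hearts and 568020 to 912188 in miR-19a/19b mimic hearts.

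Mertk, on chromosome 2 from 128698956 to 128802894, encodes the receptor that macrophages use for the uptake of dying cells. It had 1438, 1583 and 1583 normalized counts in the control mimic hearts, and 1260, 1159 and 1738 in the miR-19a/19b mimic hearts. Replicates 1 and 2 of the miR-19a/19b mimic group were below every control mimic heart and replicate 3 was above them all. The log2 fold change of -0.17 had a 95% interval from -0.51 to 0.17. Without replicate 3 it was -0.34 (SE 0.09, adjusted p = 0.0875 from limma), and without replicate 2 it was -0.05.

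Gas6 lies on chromosome 8 from 13465374 to 13494535. Its normalized counts were 5579, 5950 and 5611 in control mimic hearts, and 6491, 5622 and 6403 in miR-19a/19b mimic hearts. Replicate 2 of the miR-19a/19b mimic group sat among the control mimic hearts and the other replicates were above them. On the log2 scale the fold change was 0.11 (95% interval -0.15 to 0.36), and 0.17 without miR-19a/19b mimic replicate 2.

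Csf1r and Trem2, the receptors for growth factor and lipid, had lower means with the mimics and overlapped between the groups. Csf1r lies on chromosome 18 from 61105572 to 61132149, and 871 of its bases overlap Hmgxb3 on the other strand. Hmgxb3 had a mean of 552 normalized counts, and since counting by strand is not stated in the sources used here, reads in the shared stretch are uncertain. Csf1r had 5777, 7076 and 6418 normalized counts in the control mimic hearts and 4850, 4748 and 6615 in the miR-19a/19b mimic hearts. As for Mertk, miR-19a/19b mimic replicates 1 and 2 were below every control mimic heart, and replicate 3 was within their range. For Csf1r the log2 fold change was -0.26 (95% interval -0.61 to 0.09), and without replicate 3 it was -0.42 (SE 0.11, adjusted p = 0.0702 from limma). Without replicate 2 of the miR-19a/19b mimic group it was -0.18.

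Trem2 lies on chromosome 17 from 48346401 to 48354147. It had 3679, 4613 and 3360 normalized counts in control mimic hearts and 3003, 3451 and 4815 in miR-19a/19b mimic hearts. The highest values were in control mimic replicate 2 and miR-19a/19b mimic replicate 3, the hearts that were lowest for Lyve1. Trem2 had a log2 fold change of -0.06 (95% interval -0.49 to 0.36). It went from -0.26 without miR-19a/19b mimic replicate 3 to 0.08 without miR-19a/19b mimic replicate 1, so its direction rests on single hearts.

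**Figure D2:**
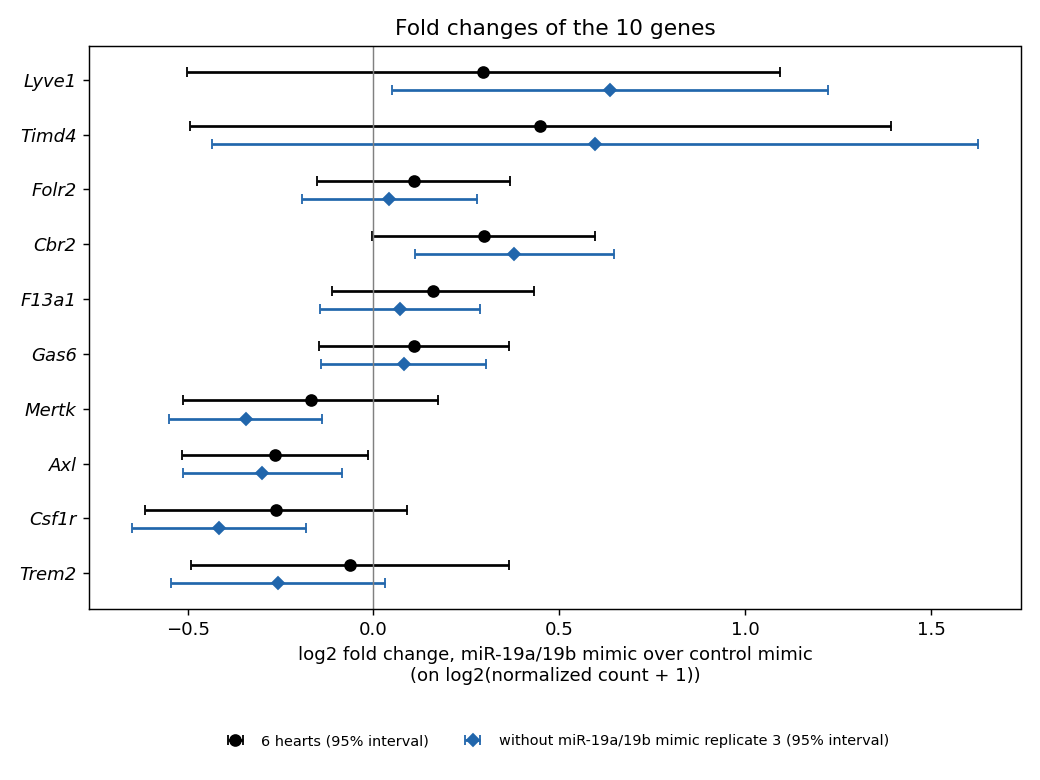
Log2 fold change of each gene, miR-19a/19b mimic over control mimic on log2(normalized count + 1), with 95% intervals from limma over 6 hearts (black circles) and without miR-19a/19b mimic replicate 3 (blue diamonds). With 6 hearts the interval excludes 0 for Axl alone among the 10 genes, and without that replicate the 10 estimates run from -0.42 for Csf1r to 0.64 for Lyve1.

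In the fit over all genes, 0 of the 10 genes were called at an adjusted p-value under 0.05, where 0.00% of the 21126 genes tested were called in limma. DESeq2 and the exact test of edgeR, on recovered reads, called 29 and 30 genes and the quasi-likelihood test of edgeR called 0, and none of these calls was among the 10. At an unadjusted p-value under 0.05, Axl was the only gene of the 10 among the lower ones, against 2.63% of all genes, and 0 of the 10 were among the higher ones, against 1.39%. All miR-19a/19b mimic hearts lay below all control mimic hearts for 1 of the 10 genes (Axl, against 5.30% of all genes), and above them for 1 (Cbr2, against 3.90%). The log2 fold changes of 4 genes were below 0 and those of 6 above, and their median was 0.11, against 0.00 over all genes. An exact permutation test of a single gene in 3 hearts against 3 cannot go below p = 0.1. Without miR-19a/19b mimic replicate 3, 3 of the 10 genes were lower at an unadjusted p-value under 0.05 (Mertk, Axl and Csf1r, against 6.12% of all genes) and 2 were higher (Lyve1 and Cbr2, against 8.41%). In that fit 515 genes passed the adjusted threshold, and 0 of the 10 were among them.

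**Figure D3:**
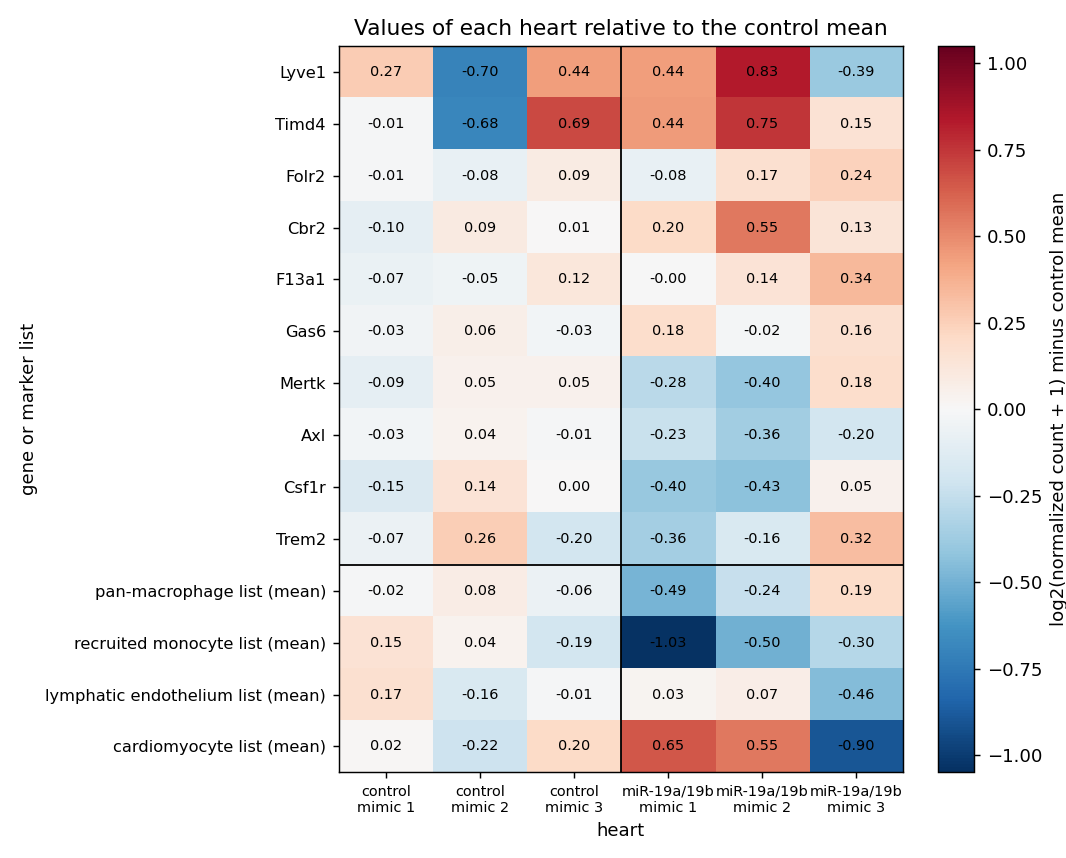
Log2(normalized count + 1) of each gene in each heart minus the control mean (color and printed value), with the means of 4 marker lists in the bottom rows. Mertk, Csf1r, Trem2 and the macrophage list are below the control mean in miR-19a/19b mimic replicates 1 and 2 and above it in replicate 3, while Axl is between -0.36 and -0.20 in all 3.

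The genes fell into patterns that crossed the groups. Relative to the control mean on the log2 scale, the general macrophage list stood at -0.49, -0.24 and 0.19 in miR-19a/19b mimic replicates 1 to 3. Csf1r stood at -0.40, -0.43 and 0.05 and Mertk at -0.28, -0.40 and 0.18 in the same hearts. Axl kept below the control mean in all 3 hearts, at -0.23, -0.36 and -0.20. The 5 resident markers had a mean of 0.20, 0.49 and 0.10 there, and 0.01, -0.28 and 0.27 in the control mimic hearts. Lyve1 and Timd4 had the widest range of the 5 and weighed most in this mean: in control mimic replicate 2 they stood at -0.70 and -0.68, while Folr2, Cbr2 and F13a1 stood at -0.08, 0.09 and -0.05. When each gene was centred on its mean over the 6 hearts, the resident markers minus the general macrophage list gave -0.19, -0.58 and 0.11 in the control mimic hearts and 0.47, 0.51 and -0.31 in the miR-19a/19b mimic hearts. The group means of this difference were -0.22 ± 0.35 and 0.22 ± 0.46 (SD, n = 3), and replicate 3 of the miR-19a/19b mimic group was below 2 of the control mimic hearts.

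Likeness between genes was measured as the root mean square difference of their centred log2 values over the 6 hearts, against 11608 genes at a mean of 100 or more normalized counts. It describes 6 libraries and is small by construction for genes that vary little. Of all pairs among the 9 members at that level, F13a1 and Folr2 were the most alike (0.05), followed by Csf1r and Mertk (0.08). Among the 11608 genes, the closest to Trem2 was Tyrobp, the gene of its signalling adaptor (0.03, where the variation of Trem2 itself was 0.25), followed by Lcp1. The closest to Csf1r were Ncapg2 and Fgd2, those to Mertk Frk and Tbc1d9, and those to Axl Msn and Vcpip1. For the resident markers they were Celsr2 and Ndufa5 for Lyve1, Hnrnpa3 and Rbm43 for Folr2, Zkscan14 and Acot11 for Cbr2, and Ubxn2b and Xrcc1 for F13a1. Those closest to Gas6 were Cyp2j6 and Trim47.

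The balance between members was read as ratios of normalized counts per kilobase within each heart, 12 ratios in all, chosen with the values known and given as a description. Relative to Csf1r, Cbr2 stood at 0.318, 0.296 and 0.308 in control mimic hearts and at 0.467, 0.608 and 0.326 in miR-19a/19b mimic hearts. F13a1 stood at 0.632, 0.525 and 0.649 against 0.791, 0.893 and 0.734, and Folr2 at 0.612, 0.479 and 0.592 against 0.696, 0.844 and 0.638. With Gas6, these made 4 of 9 ratios to Csf1r that were higher in every miR-19a/19b mimic heart than in any control mimic heart. The same held for 13.0% of the 11608 genes that reach a mean of 100 normalized counts. Mertk and Axl kept nearly the same mean ratio to Csf1r in both groups, 0.270 ± 0.016 and 0.288 ± 0.011 for Mertk, and 1.15 ± 0.09 and 1.16 ± 0.16 for Axl (SD, n = 3).

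Ligand and receptor were compared in the same way. The ratio of Gas6 to Axl was 1.45, 1.48 and 1.44 in control mimic hearts and 1.95, 1.85 and 1.87 in miR-19a/19b mimic hearts. The means of 1.46 ± 0.02 and 1.89 ± 0.05 (SD, n = 3) were apart by more than the spread within the groups. Of the 11608 genes, 41.2% had a ratio to Axl that was likewise higher in every miR-19a/19b mimic heart. The ratio of Gas6 to Mertk was 6.23 ± 0.28 and 7.63 ± 1.30 and overlapped.

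**Figure D4:**
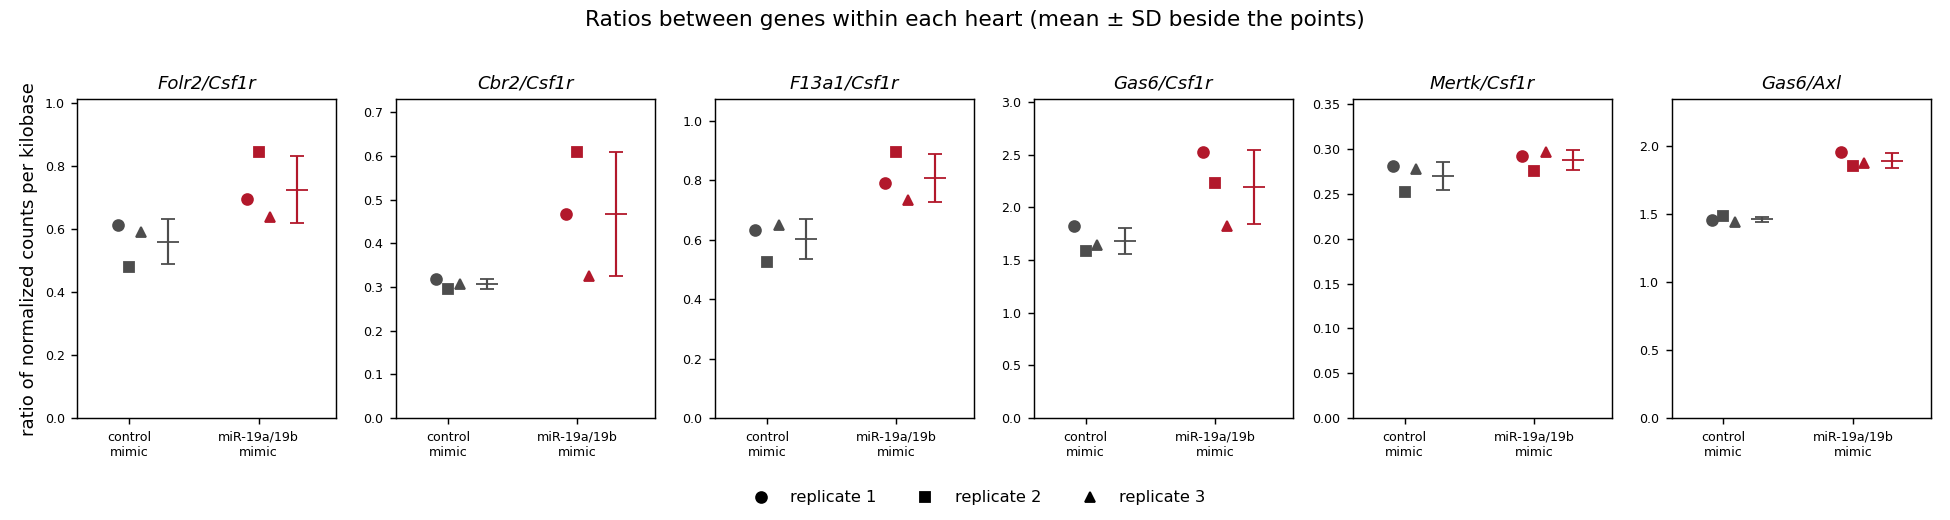
Ratio of normalized counts per kilobase between genes within each heart (vertical axes, from 0), for the 5 ratios whose groups did not overlap and for Mertk to Csf1r, in control mimic hearts (grey) and miR-19a/19b mimic hearts (red), with the mean ± SD beside the points. The ratio of Gas6 to Axl is 1.44 to 1.48 in control mimic hearts and 1.85 to 1.95 in miR-19a/19b mimic hearts, and the ratio of Mertk to Csf1r overlaps between the groups.

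Other genes of these pathways were read from 5 lists, and 0 of their genes passed the adjusted threshold over all genes in limma. Over all genes tested, 2.63% were lower and 1.39% higher at an unadjusted p-value under 0.05 in the same fit. Among bridging molecules and ligands, 9 of 12 genes had log2 fold changes below 0, 2 of them at an unadjusted p-value under 0.05. Csf1, the gene of the main ligand of CSF1R, had 2375, 2381 and 2345 normalized counts in control mimic hearts and 2019, 1993 and 1993 in miR-19a/19b mimic hearts, with little spread within either group. Its log2 fold change was -0.24 (SE 0.09), and it stayed between -0.25 and -0.24 with any heart left out. The unadjusted p-value of Csf1 was 0.0236 in limma. It lay between 0.0149 and 0.0708 over all fits to the 6 hearts, under 0.05 in 7 of 9. With a heart left out it was under 0.05 in 2 fits. Thbs1, whose product thrombospondin 1 binds dying cells and activates TGF-beta, had 15099, 10715 and 16265 against 9278, 8872 and 12318 normalized counts, which overlapped, with a log2 fold change of -0.46. The most abundant gene of this list by its count was C1qa, a subunit of complement C1q that coats dying cells, with a log2 fold change of -0.11 (SE 0.16).

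Of 14 other apoptotic cell receptors tested, 9 had log2 fold changes below 0 and 1 of these had an unadjusted p-value under 0.05. Megf10, an engulfment receptor best known from glia, had 156.9, 208.8 and 162.6 normalized counts in control mimic hearts and 153.9, 125.8 and 102.9 in miR-19a/19b mimic hearts. This gave a log2 fold change of -0.47 (SE 0.19). The groups did not overlap, though by a narrow margin. Lrp1, the scavenger receptor with the highest count in the list, had a log2 fold change of -0.04 (SE 0.19). In the list of engulfment machinery and display of dying cells, 15 of 21 genes had log2 fold changes below 0 and 0 had an unadjusted p-value under 0.05, with Calr, the gene of calreticulin, at 0.04 (SE 0.17).

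A list of 19 genes held genes that signal with CSF1R and TREM2 or accompany TREM2 in lipid-laden macrophages, and also relatives of Trem2. Of these 19 genes, 12 had log2 fold changes below 0, 2 of them at an unadjusted p-value under 0.05. Treml2, a relative of Trem2 in the same gene cluster, had 239.8, 316.2 and 215.8 normalized counts in control mimic hearts and 101.1, 146.4 and 210.1 in miR-19a/19b mimic hearts. The log2 fold change was -0.79 (SE 0.26), and without miR-19a/19b mimic replicate 3 it was -1.06 (adjusted p = 0.0255 from limma). In that fit 154 lower and 361 higher genes passed the adjusted threshold. Without replicate 1 of the same group the log2 fold change of Treml2 was -0.53. Ms4a7, a membrane protein of tissue macrophages, had a log2 fold change of -0.42 (SE 0.18), or -0.26 without control mimic replicate 2, and its groups overlapped. Apoe, the most abundant transcript of the list by its count, had a log2 fold change of -0.26 (SE 0.28).

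Of 24 other resident macrophage markers tested, 18 had log2 fold changes above 0, 2 of them at an unadjusted p-value under 0.05. The other 6 had values below 0, 1 of them at that threshold, and the median over the list was 0.06. The 18 include genes with few reads, 1 of them with 0 reads in every control mimic heart and at most 4 in a miR-19a/19b mimic heart. Cd163, the gene of the haemoglobin scavenger receptor, had 851, 579 and 991 normalized counts in control mimic hearts and 1445, 1238 and 972 in miR-19a/19b mimic hearts. Its log2 fold change was 0.61 (SE 0.21), or 0.39 without control mimic replicate 2, and the groups overlapped. Ccl24, an eosinophil chemokine, had 34.3, 6.83 and 27.1 normalized counts against 24.7, 80.4 and 72.6, a log2 fold change of 1.44 (SE 0.62) that was 0.77 without control mimic replicate 2. Siglec1, a sialic acid receptor of tissue macrophages that interferon induces, was among the lower ones. It had 2246, 2543 and 2729 normalized counts in control mimic hearts and 1290, 1574 and 1876 in miR-19a/19b mimic hearts, so every miR-19a/19b mimic heart was below every control mimic heart. The log2 fold change was -0.68 (SE 0.15, adjusted p = 0.791 from limma), and -0.81 without miR-19a/19b mimic replicate 3 (adjusted p = 0.0101 from limma). In that fit 154 lower and 361 higher genes passed the adjusted threshold, and each other fit with a heart left out called 0 genes. Without replicate 1 of the miR-19a/19b mimic group the log2 fold change of Siglec1 was -0.54. Sepp1, the gene of selenoprotein P and the most abundant of the list by its count, had a log2 fold change of -0.16 (SE 0.15).

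**Figure D5:**
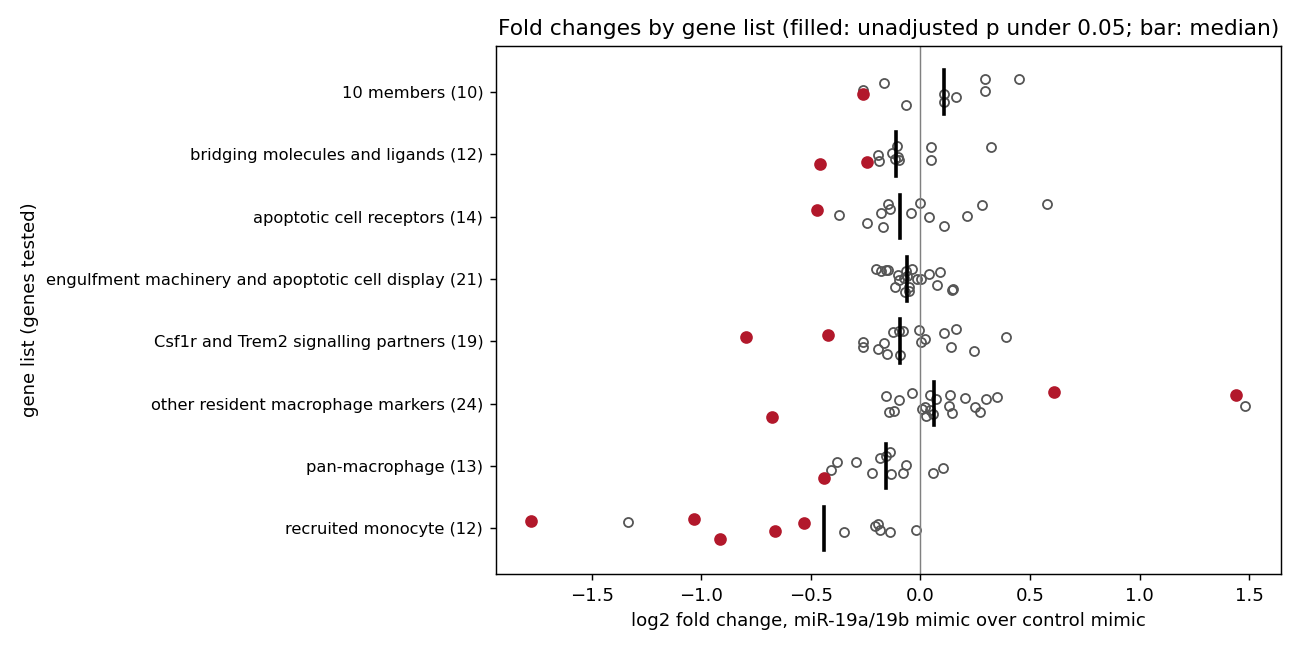
Log2 fold change of each tested gene, miR-19a/19b mimic over control mimic, by gene list, with the number of genes tested in brackets, filled points at an unadjusted p-value under 0.05 and a bar at the median. The medians lie between -0.11 and 0.11 for the members and the 5 pathway lists, at -0.16 for the general macrophage list and at -0.44 for the recruited monocyte list.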

How the data were processed

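RNA from the ventricles of 6 hearts, 3 per group by their labels, was sequenced as polyadenylated RNA in paired reads. The authors discarded low-quality and adapter reads, aligned with STAR (v2.5.1b) and counted reads per gene with HTSeq (v0.6.0). The submitters' processing notes also name DESeq2 and mm9, while 82.7% of the 25884 identifiers found in GENCODE M21 had the same start and end on GRCm38, so positions are given on GRCm38. The deposited signal is a count divided by a size factor per library, and 100% of the values in each library were whole multiples of 1 read within 0.01 read, so reads were recovered. The log2 fold changes and p-values that the authors deposited were not used, nor was their list of dysregulated genes.

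The main test was limma (version 3.58.1 in R 4.3.3, prior variance allowed to follow expression), run on log2 of the normalized count plus 1 for 21126 genes whose mean reached 1, and p-values were adjusted over all of them by the Benjamini-Hochberg method. Adding 1 shrinks the fold changes of genes with few reads. The study's methods name edgeR, which needs counts, so edgeR (4.0.16) and DESeq2 (1.42.0) on the recovered reads were alternatives, beside other pseudocounts and filters, the replicate number as a block, and fits that leave out a single heart. The scripts were tested on simulated data. No 2 libraries of a group agreed within sampling noise, and none was treated as a repeat of another (chi-square over its degrees of freedom of 10.3 to 135). Whether the hearts were prepared in batches is not given in the sources used here.

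The 10 genes and all lists were chosen with earlier results of these data known, so no test of a list was made. From each pathway list the text names up to 3 genes with the smallest unadjusted p-values under 0.05 and the gene with the highest mean. Prox1, Maf, Tub and Hmgxb3 were named after their values were seen.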

Additional observations from a re-analysis of the deposited data

How the results depend on the processing

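With 0 genes called in limma, DESeq2 called 29 and the exact test of edgeR 30, and leaving out a heart gave from 0 to 515, the highest without miR-19a/19b mimic replicate 3. Of the 10 members, 0 were called under any alternative. The members with an unadjusted p-value under 0.05, 1 in limma, were 0 with the exact test of edgeR, 2 with the quasi-likelihood test under RLE factors and 2 without a filter, and from 0 to 5 with a heart left out. The values gave no sign that the replicate numbers pair the hearts. Deviations of hearts with the same number correlated between -0.29 and -0.02, and no heart correlated best with its own number. These deviations were taken from the means of 3 hearts, so they cannot show whether hearts of the same number were handled together. With the replicate number as a block 0 members had an unadjusted p-value under 0.05. For the tools and the filter the cause was not tested, and the fits with a heart left out rest on 5 hearts. The median log2 fold change of the members moved by less than the spread between hearts in every alternative. With a heart left out, Lyve1 ranged from -0.055 to 0.64, Trem2 from -0.26 to 0.083, Lrp1 from -0.18 to 0.084 and Calr from -0.10 to 0.17, and the direction held for the other members and for the other pathway genes named by the rule. Prox1, Maf, Tub and Hmgxb3 were not refitted. At about 10 counts Timd4 was left out by the filter of at least 10 counts in every heart.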
